A study of Mus musculus with 15 samples.

Results

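A group of 8 genes that carry or report the steroid response of the uterine epithelium was followed through every table that lists them, in 5 groups of mouse uterine epithelial RNA sequencing libraries. They are the progesterone receptor gene Pgr, the estrogen receptor gene Esr1, the estrogen-induced gene Greb1, and the implantation-stage genes Ihh, Lpar3, Msx1, Calca and Il13ra2. Members were found by gene symbol, which gave all 8 of the 8 names among 28269 listed genes. The U-OEx tables list 27946 genes and hold all 8. The WT tables list 6414 genes and hold 6 (Pgr, Esr1, Greb1, Lpar3, Calca and Il13ra2). The E-OEX tables list 4903 genes and hold 3 (Lpar3, Calca and Il13ra2). Where a table does not list a member, that member was not analysed in it.

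All 15 libraries were made on day 4, 3 per group. WT LE and WT GE came from mice labelled WT, LE being luminal epithelium (the lining of the cavity) and GE glandular epithelium (the cells of the glands). E-OEX LE and E-OEX GE came from the same epithelia of mice labelled as overexpressing Notch1, the gene of a receptor for contact signals between neighbouring cells. U-OEx LE, also labelled as overexpressing Notch1, was luminal only. The labels do not spell out E-OEX or U-OEx, and they give neither the promoter or Cre driver nor the mouse strain and age, so these names are used as the labels write them. The labels also do not say whether replicate libraries came from separate mice, and p-values therefore measure the spread between libraries.

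In the mouse, ovarian estrogen first drives the uterine epithelium to proliferate, and progesterone acting through its receptor then stops proliferation and prepares the epithelium for the embryo. Progesterone receptor in the epithelium turns on Ihh, a hedgehog ligand that signals to the stroma below, and the switch to a receptive epithelium is accompanied by loss of estrogen-induced secretory genes. Lpar3, a receptor for lysophosphatidic acid, acts upstream of prostaglandin synthesis and embryo spacing. Msx1 is a homeobox transcription factor of the receptive uterus, Calca encodes calcitonin and the related peptide CGRP and is induced by progesterone, and Il13ra2 encodes a decoy receptor for interleukin-13.

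The members lie on 8 chromosomes (GENCODE M21, build GRCm38, which the submitters' processing notes name). Pgr (ENSMUSG00000031870) spans 8899833 to 8968611 on chromosome 9. Esr1 (ENSMUSG00000019768) spans 4611593 to 5005614 on chromosome 10. Greb1 (ENSMUSG00000036523) spans 16670615 to 16800886 on chromosome 12 and overlaps the annotated genes Gm48140, on the opposite strand, and Gm44305, on the same strand. The sources used here do not say whether reads were counted by strand, so reads of these overlapping genes cannot be told apart from those of Greb1. Ihh (ENSMUSG00000006538) spans 74945315 to 74951672 on chromosome 1, and Lpar3 (ENSMUSG00000036832) spans 146220963 to 146286186 on chromosome 3. Msx1 (ENSMUSG00000048450) spans 37820485 to 37824583 on chromosome 5, Calca (ENSMUSG00000030669) spans 114631478 to 114636357 on chromosome 7, and Il13ra2 (ENSMUSG00000031289) spans 147383476 to 147429192 on chromosome X.

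The promoter stretches of 3 starts are shown because they carry the motif matches among the members, or belong to the receptor whose level changed. Each is the 250 bases before an annotated start (RefSeq, GRCm38.p6), 5′ to 3′ on the gene's strand. Capitals mark a motif match. The motifs searched, on both strands, were GTGGGAA (the core bound by RBPJ, the DNA-binding partner of activated Notch), CACGTG (an E-box, bound by Hes and Hey repressors) and ACANNNTGT (a progesterone response element core). The Lpar3 stretch lies at chr3:146220711-146220960 on the plus strand, the Pgr stretch at chr9:8899583-8899832 on the plus strand, and the second Greb1 start's stretch at chr12:16757240-16757489 on the minus strand.
Lpar3: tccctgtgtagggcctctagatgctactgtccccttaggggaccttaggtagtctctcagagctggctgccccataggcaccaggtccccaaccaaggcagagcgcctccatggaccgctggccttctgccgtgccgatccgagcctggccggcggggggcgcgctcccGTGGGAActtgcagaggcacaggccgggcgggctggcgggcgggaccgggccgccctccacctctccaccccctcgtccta
Pgr: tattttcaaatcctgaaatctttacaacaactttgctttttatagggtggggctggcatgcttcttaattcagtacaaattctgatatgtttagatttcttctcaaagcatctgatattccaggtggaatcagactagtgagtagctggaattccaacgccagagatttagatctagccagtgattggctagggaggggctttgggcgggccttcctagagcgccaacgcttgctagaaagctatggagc
Greb1: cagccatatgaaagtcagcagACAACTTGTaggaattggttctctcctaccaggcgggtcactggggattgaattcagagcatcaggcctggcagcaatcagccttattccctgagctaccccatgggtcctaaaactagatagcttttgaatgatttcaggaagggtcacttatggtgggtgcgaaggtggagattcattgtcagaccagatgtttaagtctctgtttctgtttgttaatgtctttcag

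Lpar3 held the GTGGGAA match, 81 bases before its start. Of 32841 mouse promoter stretches of the same length, 5.41% hold this motif. Greb1 held the ACANNNTGT match 229 bases before its second start, a motif found in 5.84% of the stretches. The other members' stretches, and the stretch before the first Greb1 start, held none of the 3 motifs. CACGTG was found in 6.02% of all stretches. The Lpar3 stretch was 69.6% G or C with 17 CpG pairs, and the Pgr stretch was 43.6% G or C with 4 CpG pairs, against medians of 52.4% and 6 over all stretches. These matches describe the letters of the windows shown and say nothing of binding.

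Levels below are scaled read counts, which are the deposited values: read counts divided by 1 factor per library. Each WT library held 3818041 to 4797424 reads in listed genes, each E-OEX library 1980800 to 3494859, and each U-OEx library 13541644 to 14981505. The WT and E-OEX tables hold genes whose GE and LE means differ by at least 1 on the log2 scale (0.998 for 1 gene of the E-OEX tables), so their members were listed because they differ between the epithelia, and GE against LE values are descriptions. Tests between genotypes use those same libraries, and the effect of the listing on them was not tested. Stroma markers moved with the epithelium dissected. Over the 10 stroma markers that WT and U-OEx tables share, the summed level was 389, 7981 and 2564 in WT LE replicates 1, 2 and 3, 52081, 102424 and 35922 in WT GE, and 910, 558 and 1749 in U-OEx LE. WT LE replicate 2 thus stood apart from the other luminal libraries. The 6 shared luminal markers, Lpar3 among them, summed to 34911 to 61454 in WT LE, 1213 to 1821 in WT GE and 9340 to 13070 in U-OEx LE, where 3 fell, 1 rose and 2 did not pass. The 5 shared general epithelium markers summed to 90741 to 97803 in WT LE and 36545 to 51026 in U-OEx LE, where 4 of them fell, and the part of epithelial content in the differences below was not tested. Notch1, the overexpressed gene, had 47.2, 63.3 and 46.6 TPM (a read level scaled by exon length and library total) in U-OEx LE and was not compared with WT, so these data do not check the genotype labels on the targeted gene.

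Pgr reads were fewest in U-OEx LE. In scaled read counts, WT LE replicates 1, 2 and 3 had 4694, 1828 and 2971, U-OEx LE had 699, 842 and 770, and WT GE had 1503, 1777 and 1353. On this deposited scale every U-OEx LE library lay below every WT library. Joint rescaling gave factors of 1.25 to 1.33 for U-OEx LE and 0.74 to 0.84 for WT GE, so the gap between these 2 groups is uncertain. WT LE had the widest spread, with its lowest value in replicate 2, the luminal library with the highest stroma markers. Pgr fell by 1.96 on the log2 scale in U-OEx LE against WT LE (SE 0.37, adjusted p = 0.00267, limma), a ratio of rescaled means of 4.28. Without WT LE replicate 2 and under every other alternative that tested Pgr, the change kept its direction and passed the test. The WT tables list Pgr through its group means of 3164 in WT LE and 1544 in WT GE, close to the listing cut. The test against U-OEx LE used those same WT LE values, and the effect of the listing on it was not tested. Fewer cells of a type and less RNA per cell cannot be told apart in such bulk libraries. Among the 6 members tested in this comparison, 2 passed the adjusted p of 0.05 (Pgr and Lpar3, both lower). Of all 5950 genes tested here, 56.9% passed, so the members' share was not above that of the other genes.

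Esr1 showed a smaller difference from WT LE than Pgr did. WT LE had 4010, 2748 and 4253 scaled reads, and U-OEx LE had 2589, 2613 and 1834. The groups did not overlap, as was the case for 63.8% of the genes tested, and the lowest WT LE library was again replicate 2. The difference of -0.66 on the log2 scale (SE 0.27) missed the threshold (adjusted p = 0.0686, limma). It passed in DESeq2 (-0.79, adjusted p = 0.0365) and without WT LE replicate 2 (-0.90, adjusted p = 0.0148, limma), and under quantile normalization it turned to 0.05 (adjusted p = 0.866, limma). WT GE held the highest Esr1 level, 12500, 13424 and 15081, above all luminal libraries. Stroma, which also expresses estrogen receptor, was high by its markers in the same WT GE libraries, and its part in the Esr1 and Pgr levels there was not tested.

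The receptors were also compared within each library, where the scaling factor cancels. WT LE libraries had 0.854, 1.50 and 1.43 Esr1 reads per Pgr read, U-OEx LE had 3.70, 3.10 and 2.38, and WT GE had 8.32, 7.55 and 11.1. The part of stroma in the WT GE ratio was not tested. All U-OEx LE ratios lay above all WT LE ratios. The ratio of geometric means was 2.46, with p = 0.1 in a two-sided exact permutation test, which is the smallest p that 3 against 3 libraries allow. Of the 4 ratios of member reads computed between U-OEx LE and WT LE, all separated the groups at that same p, and none can pass 0.05 in this design.

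**Figure D1:**
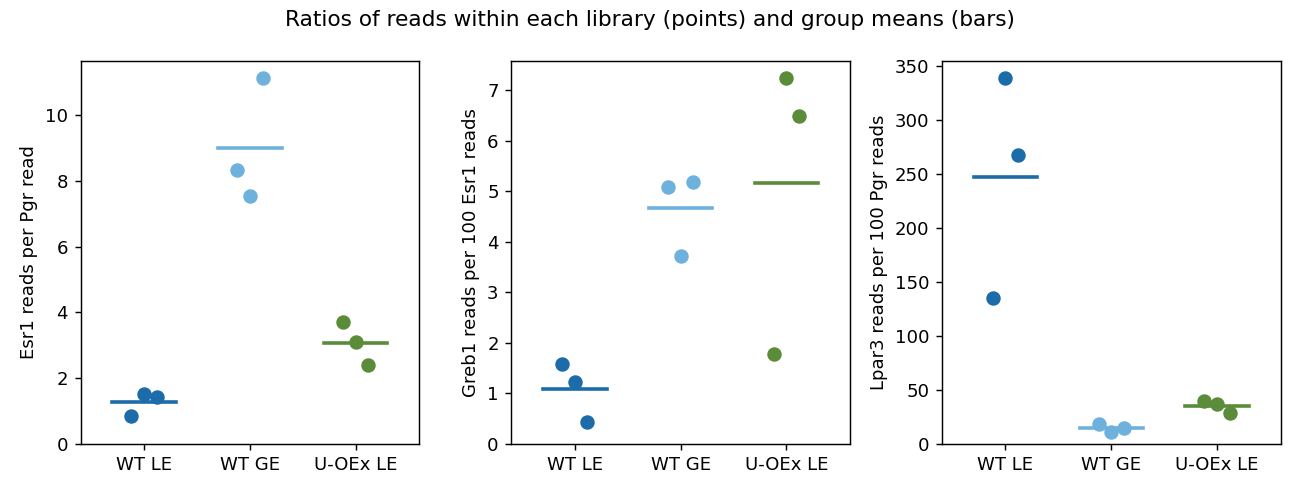
Ratios of reads of 2 members within each library (points) with group means (horizontal bars), for WT LE, WT GE and U-OEx LE; vertical axes are linear and start at 0. In U-OEx LE all 3 libraries sit above WT LE for Esr1 per Pgr (2.38 to 3.70 against 0.854 to 1.50) and for Greb1 per 100 Esr1 reads (1.77 to 7.24 against 0.420 to 1.58), and below it for Lpar3 per 100 Pgr reads.

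Greb1, a coactivator gene induced by estrogen receptor, was low in WT LE. WT LE had 63.2, 33.8 and 17.9 scaled reads, U-OEx LE had 45.9, 189 and 119, and WT GE had 634, 500 and 781. Replicate 1 of U-OEx LE lay inside the WT LE range and the other two lay above it. The log2 difference of 1.53 (SE 0.66) missed the threshold (adjusted p = 0.0784, limma). It passed without WT LE replicate 1 (2.04, adjusted p = 0.0287, limma) or without U-OEx LE replicate 1 (2.17, adjusted p = 0.0275, limma). Relative to its receptor's reads, Greb1 had 1.58, 1.23 and 0.420 reads per 100 Esr1 reads in WT LE and 1.77, 7.24 and 6.49 in U-OEx LE, a 4.68-fold difference (p = 0.1, two-sided exact permutation test). In WT GE the same ratio was 5.08, 3.72 and 5.18. The part of stroma in the WT GE values of Greb1 was not tested.

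Larger differences were measured in other genes of the steroid response. Of 16 progesterone-regulated epithelial genes, 10 were tested in U-OEx LE against WT LE, and 6 fell, none rose and 4 did not pass (median log2 change -2.36, against 0.09 over all genes tested, of which 27.8% passed as lower). Lrp2, an endocytic receptor, fell by 10.88 (SE 0.60, adjusted p = 9.07e-06, limma), from 41810 ± 11250 to 28.3 ± 28.5 rescaled reads (SD, n = 3). Zbtb16, a transcriptional repressor induced by progesterone, fell by 5.13 (SE 0.55). Klf15, a Krüppel-like factor, fell by 3.94 (SE 0.54), and Sox17, a transcription factor of the epithelium, fell by 3.18 (SE 0.19). Calca and Il13ra2 are on this list and were among the 4 that did not pass. Of 28 estrogen-regulated epithelial genes, 17 were tested, and 14 rose, 1 fell and 2 did not pass (median 3.30, and 29.1% of all genes passed as higher). The gene that fell was Pgr, and Greb1 was one of those that did not pass. The gene lists used here and below were chosen with earlier results of these data known. Only list genes that the WT tables hold, selected for a GE against LE difference, could be tested. The list counts are therefore descriptions.

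The genes with the largest rises on the estrogen list had different roles. Clca3a2, a chloride channel accessory gene, rose by 8.11 on the log2 scale (SE 0.79, adjusted p = 8.78e-05, limma). Sprr2b, a cornified envelope gene, rose by 7.85 (SE 1.02). Ltf, which encodes lactoferrin, rose by 6.89 (SE 0.66), from 1228 ± 1290 to 106411 ± 37312 rescaled reads (SD, n = 3). Padi1, a protein-citrullinating enzyme, rose by 6.37 (SE 0.23). Next in size was the proliferation marker Mki67, named after its value was seen, which rose by 6.23 (SE 0.34). Clca3a, Sprr2 and Padi genes belong to families of close copies whose reads the counting could split, so their single values are uncertain. Lactoferrin is also a protein of neutrophils, and immune markers moved the same way: 4 of the 5 immune markers tested rose, and their summed level was 807 to 1514 in WT LE and 3309 to 5943 in U-OEx LE. The part of immune cells in the estrogen list was not tested. Without any 1 library, 14 to 15 estrogen-list genes rose and 5 to 6 progesterone-list genes fell.

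**Figure D2:**
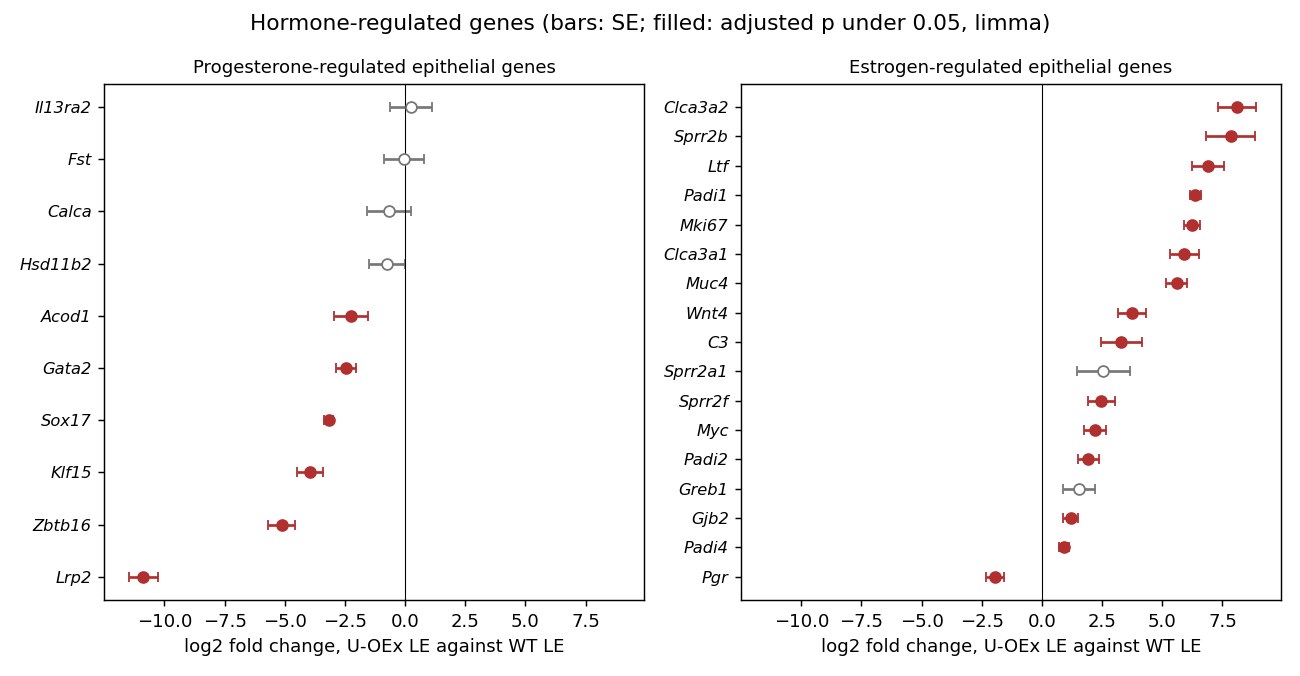
Log2 fold changes of U-OEx LE against WT LE (horizontal axis) for the tested genes of both hormone lists; bars are SE and filled points passed an adjusted p of 0.05 in limma. On the progesterone list 6 of 10 genes fell, down to -10.88 for Lrp2, and on the estrogen list 14 of 17 rose, with Pgr the single gene that fell.

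In E-OEX LE, for which neither receptor was analysed, fewer list genes could be compared with WT LE. Of all 2600 genes tested there, 5.54% passed as lower and 5.12% as higher. Of 5 progesterone-regulated genes tested, Zbtb16 fell by 5.61 (SE 1.03, adjusted p = 0.012, limma) and the other 4 did not pass (median -3.17, against -0.09 over all genes). Of 8 estrogen-regulated genes tested, 3 rose and none fell (median 2.40). They were Ltf (4.58, SE 0.69), the mucin gene Muc4 (3.24, SE 0.68) and the Wnt ligand gene Wnt4 (2.99, SE 0.64). Between the overexpressing groups, Ltf was higher in U-OEx LE than in E-OEX LE by 2.03 (SE 0.43, adjusted p = 0.0194, limma) and Muc4 by 2.08 (SE 0.59, adjusted p = 0.0464, limma).

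Other receptors and cofactors of the steroid response were tested beside Pgr, Esr1 and Greb1 in U-OEx LE against WT LE, 7 of 20 genes on that list in all. The mineralocorticoid receptor gene Nr3c2 rose by 2.47 (SE 0.52). Gper1, a membrane estrogen receptor gene, fell by 2.96 (SE 0.40), and the corepressor gene Nrip1 fell by 1.25 (SE 0.30, adjusted p = 0.00806, limma). Between WT GE and WT LE, a comparison that shares the WT LE libraries, the log2 differences were 2.13 for Nr3c2, -3.98 for Gper1 and -1.39 for Nrip1.

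Lpar3 was listed in all 5 groups, as were Calca and Il13ra2. It was lower in both overexpressing luminal groups, which were compared with the same WT LE libraries. In scaled read counts, WT LE had 6313, 6184 and 7940, E-OEX LE had 1210, 819 and 3003, and U-OEx LE had 276, 307 and 215. The glandular libraries had 273, 195 and 202 in WT GE and 229, 446 and 379 in E-OEX GE. In order of mean deposited level the groups ran WT LE, E-OEX LE, E-OEX GE, U-OEx LE and WT GE. On that scale the first 3 of these groups did not overlap each other, while the last 3 overlapped their neighbours. The tables of the genotypes may have been scaled apart. Joint rescaling of the libraries gave factors of 0.57 to 0.66 for E-OEX GE and 1.25 to 1.33 for U-OEx LE. For WT GE they were 0.74 to 0.84. The order of the last 3 groups is therefore not settled.

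**Figure D3:**
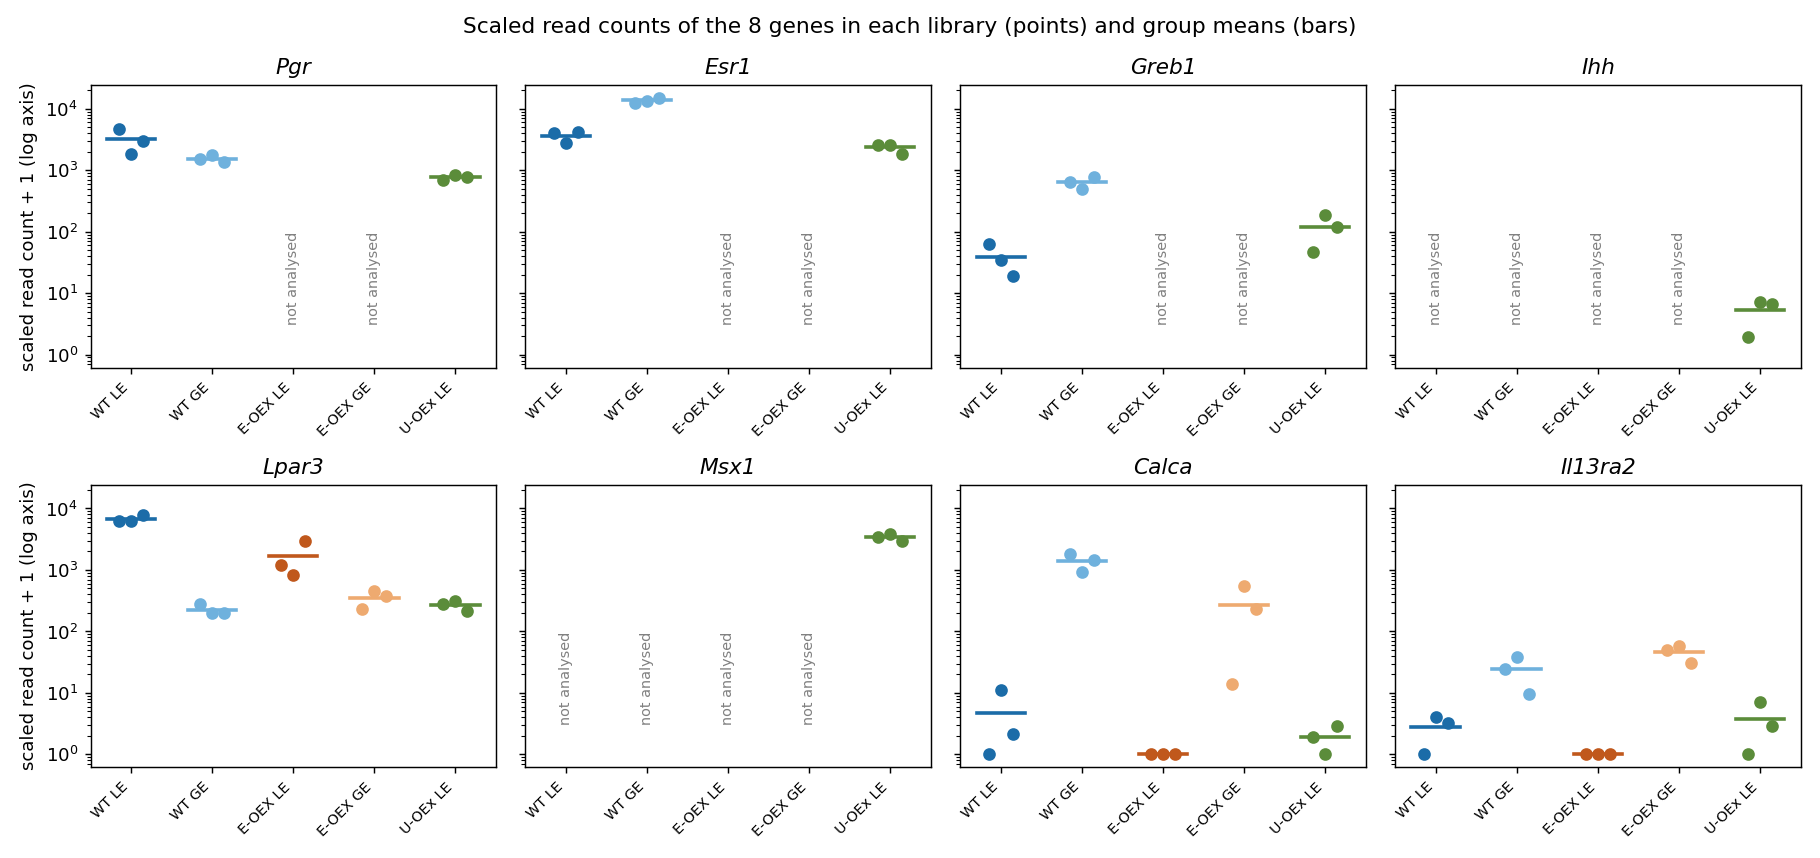
Scaled read count plus 1 (log axis) of each member in each library (points) with group means (bars), by group; groups whose tables do not list a gene are marked as not analysed. Lpar3 runs from 6184 to 7940 in WT LE and from 215 to 307 in U-OEx LE, while Calca and Il13ra2 have points at 0 in every E-OEX LE library.

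In U-OEx LE against WT LE, Lpar3 fell by 4.70 on the log2 scale (SE 0.23, adjusted p = 6.51e-06, limma), a 26.0-fold difference of means that passed under each alternative run. Relative to Pgr, Lpar3 had 134, 338 and 267 reads per 100 Pgr reads in WT LE and 39.4, 36.5 and 27.9 in U-OEx LE, a ratio of geometric means of 0.149 between the groups (p = 0.1, two-sided exact permutation test). In E-OEX LE against WT LE, Lpar3 fell by 2.41 (SE 0.51, adjusted p = 0.0196, limma), a 4.60-fold difference. It was 1 of 2 members tested there, where 10.7% of 2600 genes passed. The groups did not overlap, which held for 29.9% of the genes. The 5 luminal markers shared by these tables, Lpar3 among them, summed to 32374 to 58297 in WT LE and 15307 to 18770 in E-OEX LE. Of these, Lpar3 and Calb1 (-3.19, SE 0.70, adjusted p = 0.0203, limma) fell and 3 did not pass, and the part of luminal cell content in the Lpar3 difference was not tested. This call is less firm: without WT LE replicate 2 or 3 or without E-OEX LE replicate 1 or 2 the adjusted p was 0.0502, 0.106, 0.0865 and 0.0783 in limma, with log2 changes from -2.54 to -2.06. U-OEx LE lay below E-OEX LE by 2.58 (SE 0.48, adjusted p = 0.0133, limma), as 1 of 2 members tested in a comparison in which 15% of 4276 genes passed. That call was lost without U-OEx LE replicate 1 (adjusted p = 0.0776, limma) or replicate 3 (adjusted p = 0.0808, limma).

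In the glandular libraries Lpar3 did not follow the luminal pattern. Lpar3 is itself a luminal marker. The 5 shared luminal markers summed to 409 to 859 in WT GE and 1018 to 1976 in E-OEX GE, on the deposited scale. The part of luminal cells in the glandular Lpar3 level was not tested. E-OEX GE differed from WT GE by 0.15 on the log2 scale (SE 0.30, adjusted p = 0.778, limma), and the groups overlapped. The difference between the genotype effects in GE and LE was 2.85 (SE 0.61, adjusted p = 0.0109, limma), and Lpar3 was the 1 of 3 members that passed this interaction test, which 10.7% of 2933 genes passed. All 20 alternatives run kept this call. Within WT, Lpar3 was lower in GE than LE by 4.93 (SE 0.21), and within E-OEX by 2.08 (SE 0.53).

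Genes around LPA signalling moved in both directions in U-OEx LE against WT LE. Of 9 tested genes on the list of LPA receptors, LPA enzymes and prostaglandin synthesis, 2 rose and 4 fell, Lpar3 included (median -0.38), where 29.1% of all genes tested passed as higher and 27.8% as lower. These 6 of 9 stand near the 56.9% of all genes that passed. Ptges, a prostaglandin E synthase gene, rose by 10.19 (SE 0.82, adjusted p = 3.61e-05, limma), from 2.65 ± 4.60 to 2458 ± 570 rescaled reads (SD, n = 3). The cyclooxygenase gene Ptgs2 rose by 1.70 (SE 0.61, adjusted p = 0.0427, limma). Plpp3, a phosphatase that breaks down extracellular LPA, fell by 5.85 (SE 0.38), the cyclooxygenase gene Ptgs1 by 2.77 (SE 0.33) and the receptor gene Lpar2 by 1.90 (SE 0.22).

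The wider receptivity list held 28 genes, of which 18 were tested in U-OEx LE against WT LE. Of these, 9 fell, 4 rose and 5 did not pass (median -1.18), beside 27.8% and 29.1% of all genes that passed as lower and as higher. Those that rose were Foxa2, a transcription factor of the glands (5.66, SE 0.51), the homeobox gene Msx2 (3.98, SE 0.61), the cytokine gene Lif, which implantation requires (3.91, SE 0.41), and Ptgs2. Foxa2 and Lif are gland markers. Of the 8 gland markers tested, 4 rose, 2 fell and 2 did not pass, with a median of 1.07. Beside Foxa2 and Lif, Cxcl15 rose from a mean of 7.65 to 123 rescaled reads and Wfdc3 from 5.67 to 46.7. Sult1d1 (-8.49, SE 0.53) and Spink1 (-2.73, SE 0.79) fell. The summed level of the 9 shared gland markers went from 2771 to 6401 in WT LE to 1066 to 1448 in U-OEx LE. Sult1d1 made up most of the WT LE sum, at 5269 ± 2381 rescaled reads in WT LE and 14.3 ± 9.87 in U-OEx LE (SD, n = 3). Spink1, Prss29 and Ttr were at 0 in every U-OEx LE library and had means of 8.23, 2.99 and 0.66 rescaled reads in WT LE. The part of gland cells in the Foxa2 and Lif differences was not tested. Among those that fell, Hoxa10 (-3.54, SE 0.72) and Hoxa11 (-3.89, SE 0.90), singled out after their values were seen, are also stroma markers, and the part of stroma in the WT LE libraries was not tested for them. In E-OEX LE against WT LE, 2 of 12 tested receptivity genes fell (Lpar3 and Hoxa10) and none rose, beside 5.54% of all genes that passed as lower.

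**Figure D4:**
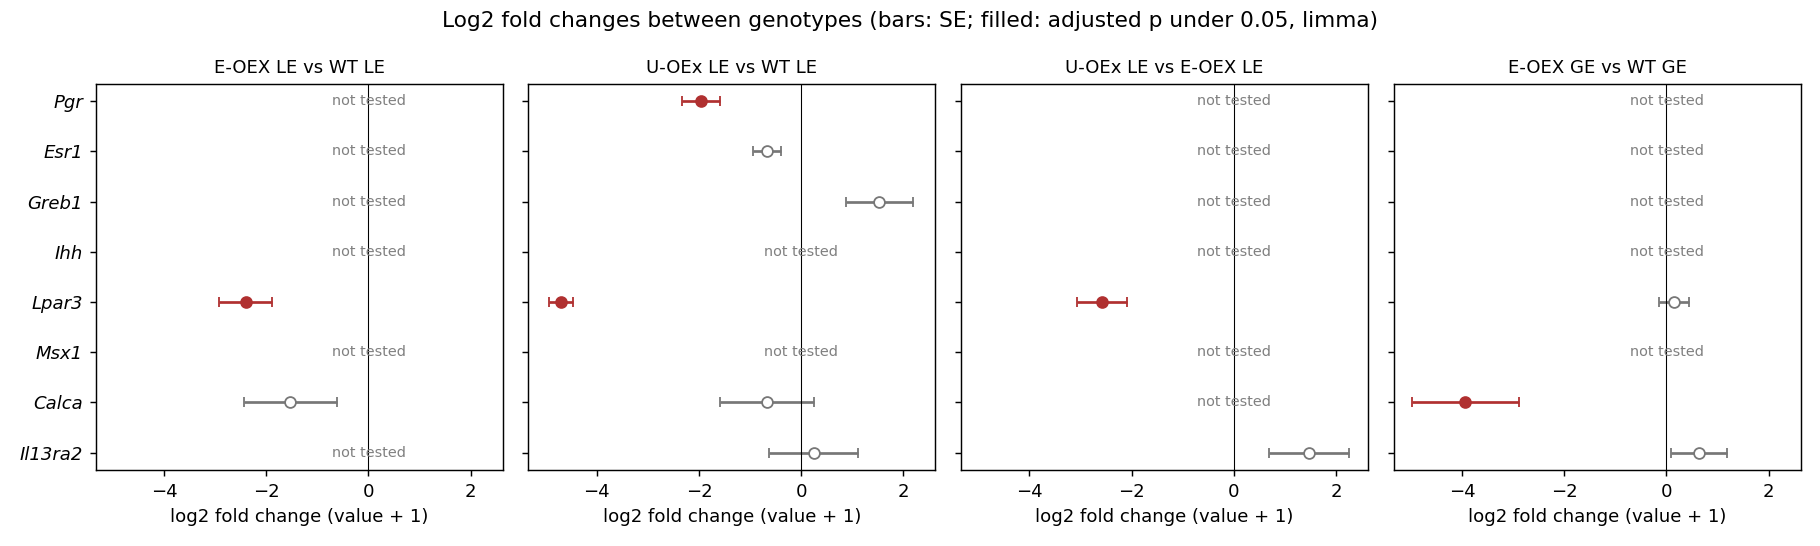
Log2 fold changes of the members (rows) in 4 comparisons between genotypes (panels); bars are SE, filled points passed an adjusted p of 0.05 in limma, and "not tested" marks genes that both tables do not list or that lay under the minimum level. Lpar3 is lower in all 3 luminal comparisons (-2.41, -4.70 and -2.58) and near 0 in the glandular one (0.15).

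Calca was a gene of the glands in these libraries. WT GE had 1785, 943 and 1459 scaled reads and E-OEX GE had 13.02, 558 and 229. The luminal libraries had 0, 10.2 and 1.12 in WT LE, 0.919, 0 and 1.92 in U-OEx LE, and 0 in all 3 libraries of E-OEX LE. A count of 0 allows up to 3 reads, which is 2.72 to 3.24 scaled reads in the E-OEX LE libraries. All WT GE libraries lay above all E-OEX GE libraries (40.5% of the genes tested did not overlap between these groups), and E-OEX GE replicate 1 lay far below the other two. Calca fell by 3.94 in E-OEX GE against WT GE (SE 1.04, adjusted p = 0.0226, limma), a 7.41-fold difference of means. It was the 1 of 3 members that passed, in a comparison in which 23.5% of 2851 genes did. The call was lost in DESeq2 (-2.90, adjusted p = 0.0528) and without WT GE replicate 1 (adjusted p = 0.106, limma), replicate 2 (0.0520) or replicate 3 (0.0600), each time with the same direction.

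Other gland markers fell with Calca. Of the 8 gland markers tested in E-OEX GE against WT GE, 6 fell, Calca included, and none rose. Their summed level was 37509 to 47131 in WT GE and 9216 to 20693 in E-OEX GE. E-OEX GE replicate 1, with the lowest Calca, also had the lowest gland marker sum. Smooth muscle markers went the other way, with all 7 tested higher and sums of 2424 to 4554 in WT GE and 14117 to 17881 in E-OEX GE. Stroma marker sums were 35922 to 102424 in WT GE and 80030 to 94857 in E-OEX GE, with none of 10 called. Sums of the 5 shared luminal markers were 409 to 859 in WT GE and 1018 to 1976 in E-OEX GE, with 1 of 5 called higher. The highest of these luminal sums was that of E-OEX GE replicate 1. All these sums are deposited values. Joint rescaling gave factors of 0.74 to 0.84 for WT GE and 0.57 to 0.66 for E-OEX GE. The gap between the luminal sums of the 2 groups is therefore not settled. The part of gland, luminal and muscle content in the Calca difference was not tested.

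Between the epithelia, Calca was 8.87 log2 units higher in WT GE than in WT LE (SE 0.84). Counted against 3 reads per library, the GE level in E-OEX was at least 91.8-fold above LE, and at least 41.6-fold without E-OEX GE replicate 2. All 6 members were called between WT GE and WT LE, as were 97% of that table's genes, and all 3 were called between E-OEX GE and E-OEX LE, as were 91.6% of that table's genes. These shares restate how the tables were selected. In the luminal comparisons Calca gave values near the floor that did not pass: -1.53 for E-OEX LE (SE 0.91, adjusted p = 0.320, limma) and -0.67 for U-OEx LE (SE 0.92, adjusted p = 0.557, limma), both against WT LE. Between U-OEx LE and E-OEX LE it was at the floor in both groups. Its mean there lay under the minimum of 1 for a test, so it was not tested.

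Genes of calcitonin receptors were also compared. Of 4 tested genes on the calcitonin list in U-OEx LE against WT LE, 2 rose and none fell, and 29.1% of all genes passed as higher. Ramp2 and Ramp1, which encode accessory proteins that set the peptide preference of the calcitonin receptor family, rose by 4.60 (SE 0.60) and 3.13 (SE 0.52, adjusted p = 0.00127, limma). Against E-OEX LE, Ramp1, Ramp2 and Ramp3 were higher in U-OEx LE by 2.78 (SE 0.49), 3.24 (SE 0.56) and 3.30 (SE 0.88), 3 of 6 tested on the list. In that comparison 6.97% of the 4276 genes tested passed as higher.

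Il13ra2 was low everywhere and higher in the glandular libraries. Stroma marker sums were also higher there, at 35922 to 102424 in WT GE and 80030 to 94857 in E-OEX GE. They were 389 to 7981 in WT LE and 403 to 2034 in E-OEX LE. The part of stroma in the Il13ra2 level was not tested. WT GE had 23.4, 37.9 and 8.65 scaled reads and E-OEX GE had 48.1, 56.3 and 30.0. WT LE had 0, 3.07 and 2.24, U-OEx LE had 0, 6.22 and 1.92, and E-OEX LE had 0 in each library. The glandular groups overlapped each other, and so did the luminal groups. Against the floor of 3 reads per library, Il13ra2 was at least 7.33-fold higher in WT GE than in WT LE, and E-OEX GE stood at least 15.4-fold above E-OEX LE. E-OEX GE differed from WT GE by 0.64 on the log2 scale (SE 0.55, adjusted p = 0.462, limma). Its luminal values did not pass either, at 0.24 for U-OEx LE against WT LE (SE 0.87, adjusted p = 0.825, limma) and 1.47 for U-OEx LE against E-OEX LE (SE 0.79, adjusted p = 0.233, limma). In E-OEX LE against WT LE both groups were at the floor. Its mean there lay under the minimum of 1 for a test, so no test was made.

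The interleukin-13 pathway around it was measured at higher levels. In U-OEx LE against WT LE, 3 of 5 tested genes of the interleukin-4 and interleukin-13 list rose and 1 fell, and Il13ra2 was the fifth. Of all genes tested there, 29.1% passed as higher and 27.8% as lower, so a call was common in this comparison. The signalling receptor gene Il13ra1 rose by 1.43 (SE 0.47, adjusted p = 0.0306, limma). Il2rg, the shared cytokine receptor gamma chain, rose by 2.61 (SE 0.45), and Socs1, a feedback inhibitor, rose by 1.50 (SE 0.52). The cytokine gene Il4 fell by 1.48 (SE 0.53, adjusted p = 0.0437, limma). Il2rg is mainly a gene of immune cells, whose markers rose in the same libraries as given above, and their part in it was not tested.

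Ihh and Msx1 were analysed in the U-OEx LE libraries alone, so neither was compared between groups. Ihh had 1, 7 and 6 reads (0.919, 6.22 and 5.76 scaled reads) and Msx1 had 3679, 4298 and 3113 reads (3381, 3819 and 2990 scaled reads) in replicates 1, 2 and 3. To compare levels between genes, reads were divided by exon length and given as TPM over 27131 genes. Msx1 was at 252, 315 and 230 TPM, higher than 98.2% of these genes by its mean. Ihh was at 0.0696, 0.522 and 0.450 TPM.

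The hedgehog pathway around Ihh was present at the level of its receptors in U-OEx LE. Smo, the signal transducer, was at 80.4 ± 12.4 TPM and Ptch1, the ligand receptor and a target, at 15.3 ± 0.519 TPM (SD, n = 3). The ligand gene Dhh was at 0.0520 ± 0.0900 TPM. The transcription factor gene Gli1, a pathway target, was at 0, 0 and 0.412 TPM, and the target Hhip had 0 in each library. Of 5 hedgehog genes tested against WT LE, Gli3 rose by 3.41 (SE 0.66) and Gli1 fell by 4.73 (SE 1.08, adjusted p = 0.00634, limma), and 3 did not pass. Of all genes in that comparison, 56.9% passed. Gli1 and Hhip are stromal responders to the epithelial ligand, and the part of stroma in the WT LE libraries, whose markers are given above, was not tested.

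On the same length-based scale the members ranked apart in U-OEx LE. Msx1 at 266 ± 44.4 TPM was followed by Esr1 at 41.5 ± 8.68, Lpar3 at 26.2 ± 5.57 and Pgr at 21.8 ± 3.18 (SD, n = 3). Lpar3 and Pgr overlapped, while Lpar3 and Esr1 came close without overlapping, with nearest values of 31.90 and 31.95 TPM. Greb1 was at 3.04 ± 1.97 TPM, and Ihh, Il13ra2 and Calca were all under 1 TPM, at 0.347, 0.299 and 0.132. Among steroid receptors, Esr2 was at 0.627 ± 0.802 TPM, Gper1 at 12.04 ± 1.41 and the glucocorticoid receptor gene Nr3c1 at 13.4 ± 2.13. Among LPA receptors, Lpar6 at 27.0 ± 2.94 TPM overlapped Lpar3, and Lpar2 was at 11.4 ± 1.50 and Lpar1 at 3.72 ± 0.899. The decoy gene Il13ra2 was far below Il4ra (291 ± 116 TPM) and Il13ra1 (76.0 ± 9.86 TPM).

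**Figure D5:**
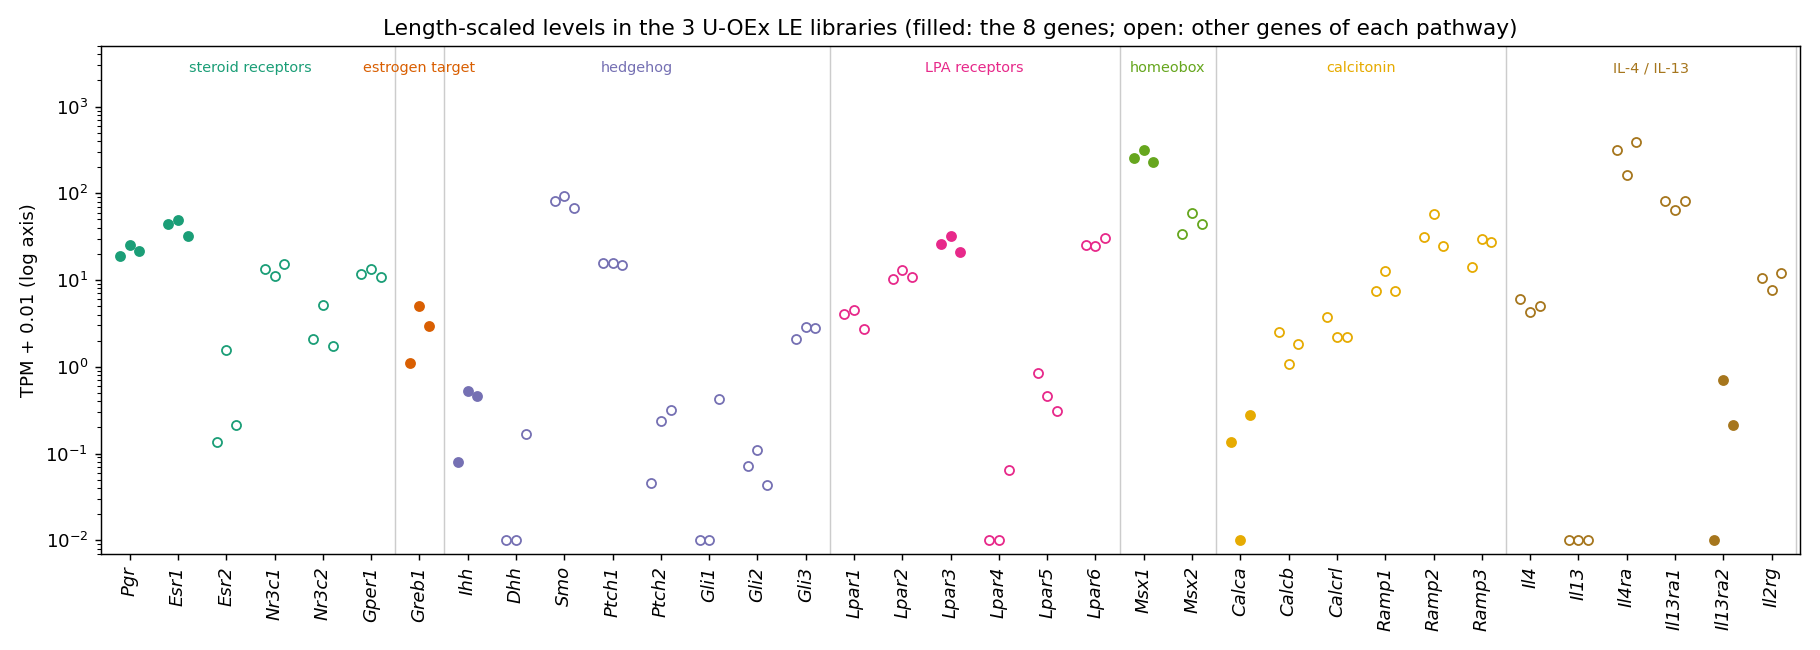
TPM plus 0.01 (log axis) in the 3 U-OEx LE libraries (points) for the 8 members (filled) and other genes of their pathways (open). Msx1 is the highest member (230 to 315 TPM), and Calca, Ihh and Il13ra2 lie under 1 TPM in every library.

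Genes with the most similar pattern to each member were found by Pearson correlation of log2 reads over the libraries that list it, as a description. The libraries of a group share tissue and genotype, so high correlations mostly follow the group means. Over 15 libraries and 2512 candidate genes, Lpar3 was most like Mecom (r = 0.984), Calb1 (0.984) and Enpp3 (0.983), Calca was most like Cyp3a59 (0.976), Btg3 (0.966) and Spink1 (0.965), and Il13ra2 was most like Abca8a (0.965), Rem1 (0.957) and S1pr3 (0.950). Over the 9 WT and U-OEx libraries and 5335 candidates, Pgr was most like Nwd1 (0.993), Draxin (0.992) and Galm (0.990). Esr1 was most like Slc44a3 (0.996), Acpp (0.993) and Adhfe1 (0.984), and Greb1 was most like Klhl5 (0.970), Sytl5 (0.967) and Ephx2 (0.965).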

How the data were processed

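The deposited values are handled as a signal: the authors' deposited tables hold read counts divided by 1 factor per library, as read from the values, of which 100% came within 0.01 of a whole read after division by the library's step. Per the submitters' processing notes the build is GRCm38 (mm10); the aligner, counter and scaling method are not given in the sources used here. The members and gene lists were chosen with earlier results of these data known.

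The main test was limma 3.58.1 (R 4.3.3, mean-variance trend) on log2(value + 1), fitted over every shared gene whose mean value was 1 or more, with Benjamini-Hochberg adjustment and a threshold of 0.05. Fold changes on this scale understate changes of low genes. Comparisons between genotypes used recovered reads rescaled by TMM (edgeR 4.0.16), and GE against LE and the interaction used the deposited values. Groups whose libraries all held 3 reads or fewer were taken as at the floor. All members were named wherever listed, and up to 4 called genes per list by fold, or every gene of a count of 5 or fewer. TPM used GENCODE M21 exon lengths. The scripts were tested on simulated data. Same-numbered replicates correlated from -0.28 to 0.19 and were not treated as pairs. Of the steroid receptor list, 1 gene is not reported here.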

Additional observations from a re-analysis of the deposited data

Results flagged for a closer look

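The difference in Lpar3 between E-OEX and WT was not the same in the GE and LE libraries. E-OEX minus WT was 2.85 log2 units higher in GE than in LE (SE 0.61, adjusted p = 0.0109, limma). Lpar3 fell in E-OEX LE and did not pass the test in E-OEX GE. All 3 E-OEX LE libraries lay below all 3 WT LE libraries, while the GE groups overlapped. The part of luminal cells in the GE level of Lpar3, a luminal marker, was not tested.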

How the results depend on the processing

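The Lpar3 difference in U-OEx LE, its interaction and the Pgr difference in U-OEx LE kept their direction and call under all alternatives that tested them. The fit over all 5 groups could not test Pgr, which the E-OEX tables do not list. In 1 fit over all 5 groups, which tests only 2819 genes and lists fewer members, 616 genes were called for E-OEX LE against WT LE (277 in the main analysis), 282 for E-OEX GE against WT GE (670), 1281 for U-OEx LE against WT LE (3384), 2733 for WT GE against WT LE (6223) and 2704 for E-OEX GE against E-OEX LE (4491). In that fit 1 member was called for U-OEx LE against WT LE (2) and 3 for WT GE against WT LE (6). For U-OEx LE against WT LE it called 1 of 6 progesterone-list genes lower, 7 of 8 estrogen-list genes higher and 5 of 12 receptivity genes lower. DESeq2 called 458 genes for E-OEX LE against WT LE, 0 members for E-OEX GE against WT GE, and 501 genes and 2 members for the interaction (315 and 1), Il13ra2 joining Lpar3 at 4.28 (adjusted p = 0.0496). For Calca the interaction, -1.95 in limma, was 2.80 in edgeR and 1.80 in DESeq2, none of them called, and the cause was not tested. Esr1 in U-OEx LE turned to 0.0503 under quantile normalization, and Pgr in WT GE against WT LE lost its call there (-0.50, adjusted p = 0.146, limma).

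Leaving out 1 library at a time moved the members called from 0 to 1 (E-OEX LE against WT LE, E-OEX GE against WT GE and U-OEx LE against E-OEX LE) and from 1 to 2 (interaction). Genes called ran from 56 to 323 (E-OEX LE), 362 to 720 (E-OEX GE), 60 to 903 (U-OEx LE against E-OEX LE) and 179 to 449 (interaction). Lpar3 in E-OEX GE against WT GE ran from -0.0613 to 0.439 and Il13ra2 in U-OEx LE against WT LE from -0.441 to 0.999, so neither has a settled direction. Groups left with fewer libraries were assumed to vary like the rest.

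A fit with replicate block called 292 genes for E-OEX LE against WT LE, 718 for E-OEX GE against WT GE, 3182 for U-OEx LE against WT LE, 612 for U-OEx LE against E-OEX LE and 314 for the interaction, and no count of members changed. Scaling moved the median log2 change of all genes. In E-OEX GE against WT GE it was 0.05 after rescaling and 0.50 on the deposited scale, with 41.3% and 71.6% of calls higher. In E-OEX LE against WT LE, 48.0% and 58.6% of calls were higher. In WT GE against WT LE the median was 1.36, and 0.69 in DESeq2 (58.3% and 47.5% higher). In E-OEX GE against E-OEX LE it was 1.75, and 0.43 under quantile normalization (67.2% and 46.2% higher). In the interaction it was 0.33, and 0.00 under quantile normalization (54.3% and 42.9% higher). Calca and Il13ra2 in LE lie at the limit of detection, and the full depth of the WT and E-OEX libraries is unknown.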
